A study of Homo sapiens with 10 samples.

Results

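A group of 7 genes of epithelial cells was followed across 3 subsets of MDA-MB-231 breast cancer cells (BCCs): CDH1, JUP, DSP and TJP1 of the cell junctions, the keratin KRT7, and GATA3 and MLPH of luminal breast cells. They were chosen by symbol, as all probe sets whose only gene symbol in the annotation of the array platform is one of the 7, which gave 12 of 25750 deposited probe sets and 7 of 12083 genes with a single symbol. MDA-MB-231 is an established basal-like, invasive human line. All subsets came from cells stably transfected with pEGFP1-Oct3/4, in which the Oct4A promoter drives GFP, and selected with neomycin. The GFP-brightest 5% of cells were sorted as Oct4hi (4 arrays), the population between the extremes as Oct4med (2 arrays) and the GFP-dimmest 5% as Oct4low (4 arrays), and the results text of the study gives a wider gate for Oct4low. The gates rest on the reporter, whose own transcript is not analysed here, and the origin of the transfectants from 1 or several clones is not given in the sources used here. Material from 100 ng of total RNA went onto each Affymetrix U133 Plus 2.0 array, and the deposited values are log2 intensities between 2.37 and 14.46, with array medians of 5.05 to 5.14.

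Epithelial cells hold together through junctions whose parts are shared and exchanged. E-cadherin, the product of CDH1, binds E-cadherin on the next cell and is tied to actin through catenins, of which plakoglobin (JUP) also sits in the desmosome, where it links desmosomal cadherins to desmoplakin (DSP) and so to the keratin filaments, while ZO-1 (TJP1) is a scaffold under the tight junction. GATA3 is a transcription factor that maintains luminal fate in the mammary gland and MLPH, a linker between Rab27 vesicles and myosin V, is commonly high in luminal tumours. Basal-like mesenchymal lines such as MDA-MB-231 are known for little E-cadherin and for low luminal factors, and the repressors of the SNAI and ZEB families act on junction genes through the DNA sequence CAGGTG.

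That sequence was searched for on both strands, as CAGGTG or CACCTG, in the RefSeq promoter windows of 300 bases (250 before and 50 after a transcript start, GRCh38.p14). It occurred in 20.6% of all 35116 windows and in at least 1 window of 24.6% of the 6058 tested genes that have any. Among the members, windows were held for 5 genes (15 windows), and 4 windows, 1 each of JUP, DSP, TJP1 and MLPH, contained it. None of the windows of GATA3 did, and CDH1 and KRT7 had no entry. The 250 bases before those 4 starts are shown because they carry the only matches, 5′ to 3′ on the strand of the gene, with the matches in capitals. They lie at chr17:41785977-41786226 on the minus strand for JUP, chr6:7541421-7541670 on the plus strand for DSP, chr15:29969050-29969299 on the minus strand for TJP1 and chr2:237487001-237487250 on the plus strand for MLPH.
JUP: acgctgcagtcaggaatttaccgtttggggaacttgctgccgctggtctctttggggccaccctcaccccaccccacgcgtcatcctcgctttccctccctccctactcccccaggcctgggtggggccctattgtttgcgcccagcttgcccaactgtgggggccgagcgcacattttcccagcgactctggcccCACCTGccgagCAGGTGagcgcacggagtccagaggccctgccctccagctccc
DSP: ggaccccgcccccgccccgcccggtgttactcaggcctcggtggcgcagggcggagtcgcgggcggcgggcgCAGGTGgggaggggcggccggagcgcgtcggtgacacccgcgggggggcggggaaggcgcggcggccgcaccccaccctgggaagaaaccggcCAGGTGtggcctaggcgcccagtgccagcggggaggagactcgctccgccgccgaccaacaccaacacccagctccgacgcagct
TJP1: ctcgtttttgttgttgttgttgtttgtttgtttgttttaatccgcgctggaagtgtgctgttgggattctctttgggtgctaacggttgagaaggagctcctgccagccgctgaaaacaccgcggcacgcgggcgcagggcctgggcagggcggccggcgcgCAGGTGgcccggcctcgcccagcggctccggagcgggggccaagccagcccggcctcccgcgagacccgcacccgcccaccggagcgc
MLPH: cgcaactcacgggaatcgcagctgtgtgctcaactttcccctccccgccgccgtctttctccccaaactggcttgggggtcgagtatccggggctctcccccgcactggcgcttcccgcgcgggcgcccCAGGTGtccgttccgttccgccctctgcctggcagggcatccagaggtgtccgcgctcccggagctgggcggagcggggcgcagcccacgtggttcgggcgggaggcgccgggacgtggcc
JUP carried the 2 matches 54 and 43 bases before its start, in opposite orientations, and DSP carried 2 in the same orientation, 178 and 85 bases before. TJP1 had 1 match 88 bases before its start, and MLPH 1 match 121 bases before. The windows of DSP and TJP1 lie at the outermost start of their genes, whereas those of JUP and MLPH lie inside the gene, at a later start. At least 2 matches were found in 3.49% of all windows. A match describes letters in a window and was not tested for binding, and its carriers include both higher and lower transcripts, as given below.

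Across the arrays, correlations of log2 values were 0.987 to 0.994 between arrays of a subset and 0.957 to 0.981 between subsets, no pair of arrays held identical values, and the median SD of a tested probe set within a subset was 0.12. The brightest control probe set for 28S rRNA averaged 13.57 ± 0.03 in Oct4hi and 12.70 ± 0.09 in Oct4med arrays, against 13.60 ± 0.07 in Oct4low arrays (SD, n = 4, 2 and 4). It was thus lower in Oct4med, and its part in any result for Oct4med BCCs was not tested. CD44 (brightest probe set) and CAV1, known to be high in this line, were above the array median on all 10 arrays. The 1 probe set of VIM used here, a gene that is also known to be high in the line, was below the median on all 10. The deposit holds only features that passed the authors' filters, so this probe set alone does not give the level of VIM in the cells. Among markers that define luminal and epithelial cells, PGR, ESRP1 and GRHL2 were below the median on every array, while EPCAM and ESR1 were above it. The 1 probe set of ESR1 used here read 5.72 to 6.24 over the arrays, not far above the median. It has the suffix _x_at and so can match several transcripts, and it alone does not give the level of ESR1 in the cells. The means of all luminal probe sets (23 of 33 listed genes measured) were 5.04 to 5.07 in Oct4hi, 5.14 to 5.16 in Oct4med and 5.10 to 5.13 in Oct4low arrays, with GATA3 and MLPH among them.

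Tests covered 13872 probe sets at or above the array median in at least 2 arrays. Among them were 7 of the 12 member probe sets, for every member gene but CDH1. Between Oct4hi and Oct4low BCCs, 5 of the 7 changed: DSP and TJP1 were higher, and JUP, GATA3 and MLPH lower. The KRT7 probe sets did not pass the test. Over all tested probe sets 34.9% were called in this comparison (18.2% higher, 16.7% lower), so that a call by itself was common, and calls required an adjusted p under 0.05 in limma's moderated test. In bulk RNA, fewer cells with a transcript and less of it per cell cannot be told apart. All member values are in the plot by array.

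**Figure D1:**
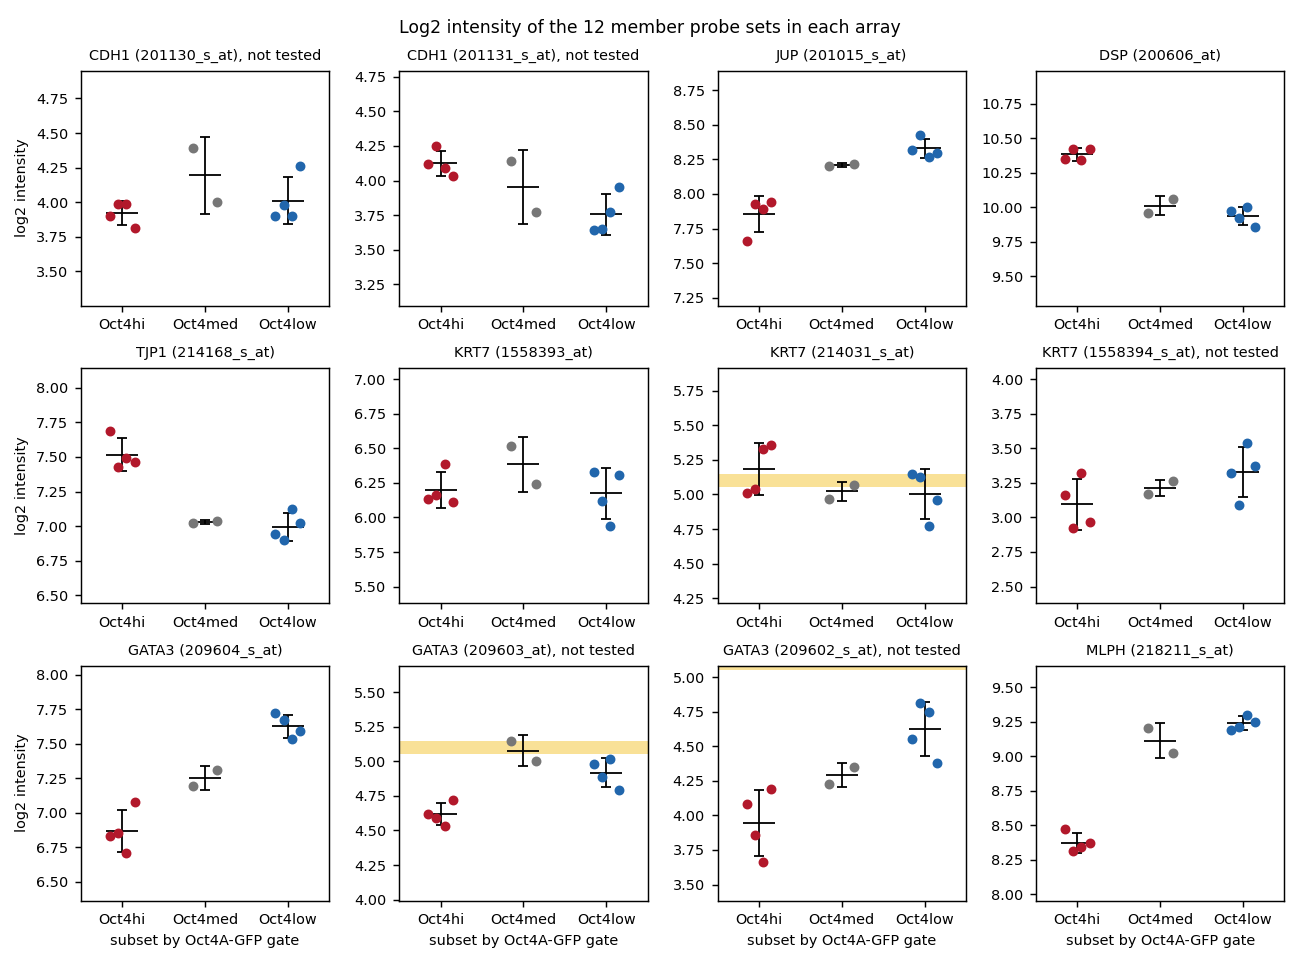
Log2 intensity (y axis) of each of the 12 member probe sets in every array, with 1 panel per probe set and the subsets Oct4hi, Oct4med and Oct4low from left to right. Points are arrays, black bars are the mean and SD, every y axis spans the same range around its own centre, and the yellow band is the range of array medians. The Oct4hi points lie entirely above the Oct4low points for DSP, TJP1 and CDH1 201131_s_at and entirely below them for JUP, MLPH and all 3 GATA3 probe sets.

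CDH1, the cadherin of the adherens junction (chromosome 16), was dim on every array. Its probe set 201130_s_at read 3.90, 3.99, 3.99 and 3.81 in Oct4hi, 4.39 and 4.00 in Oct4med and 3.90, 3.98, 3.90 and 4.26 in Oct4low arrays. The second, 201131_s_at, read 4.12, 4.25, 4.09 and 4.03 in Oct4hi, 4.14 and 3.77 in Oct4med and 3.64, 3.65, 3.77 and 3.95 in Oct4low arrays. Both were below the array median on all 10 arrays, and no higher than the percentile 33.6 of an array, and so neither entered the test. The pair did not give the same result. With no filter, 201131_s_at was 0.37 higher in Oct4hi than in Oct4low arrays on the log2 scale (SE 0.10, limma adjusted p = 0.0215). Its lowest Oct4hi array lay above its highest Oct4low array. For 201130_s_at these subsets overlapped and no clear difference was found (-0.09, 95% interval -0.32 to 0.14, adjusted p = 0.657). Both probe sets are in the deposit, from which the authors left out features near background. Whether either was clear of background was not tested again here.

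JUP (plakoglobin, chromosome 17) is the member shared by adherens junctions and desmosomes, and it was lower in Oct4hi BCCs. Its log2 intensities were 7.66, 7.93, 7.89 and 7.94 in Oct4hi, 8.20 and 8.22 in Oct4med and 8.32, 8.43, 8.27 and 8.30 in Oct4low arrays. Every Oct4hi array lay below both Oct4med arrays, and both of these below every Oct4low array, by 0.05 at the closest. The transcript was 1.39-fold lower in Oct4hi than in Oct4low BCCs (log2 difference -0.48, SE 0.08, limma adjusted p = 0.000872). Oct4hi was also lower than Oct4med (-0.35, SE 0.10, adjusted p = 0.0193), whereas the step of -0.12 between Oct4med and Oct4low did not pass (95% interval -0.33 to 0.09, adjusted p = 0.396). The comparison of Oct4hi with Oct4med lost its call without Oct4med replicate 1 (adjusted p = 0.0953) and without replicate 2 (adjusted p = 0.0633).

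DSP, the desmosomal plaque protein that anchors keratin filaments (chromosome 6), went the other way. It read 10.35, 10.42, 10.34 and 10.42 in Oct4hi, 9.96 and 10.06 in Oct4med and 9.97, 9.92, 10 and 9.86 in Oct4low arrays. The Oct4hi arrays stood apart above all 6 others, which overlapped. DSP was 1.36-fold higher in Oct4hi than in Oct4low BCCs (log2 difference 0.45, SE 0.07, limma adjusted p = 0.000441) and higher than in Oct4med BCCs by 0.37 (SE 0.08, adjusted p = 0.00649). Oct4med differed from Oct4low by 0.07 (95% interval -0.10 to 0.25, adjusted p = 0.552). Without Oct4med replicate 1 the difference between Oct4hi and Oct4med was no longer called (adjusted p = 0.0729).

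TJP1, which encodes the tight junction scaffold ZO-1 (chromosome 15), followed the same order as DSP. Its log2 intensities were 7.69, 7.43, 7.49 and 7.46 in Oct4hi, 7.02 and 7.04 in Oct4med and 6.94, 6.90, 7.12 and 7.02 in Oct4low arrays. Again all 4 Oct4hi arrays were above the other 6, and the Oct4med values fell inside the range of Oct4low. TJP1 was 1.44-fold higher in Oct4hi than in Oct4low BCCs (0.52, SE 0.08, limma adjusted p = 0.00051) and 1.40-fold higher than in Oct4med BCCs (0.49, SE 0.10, adjusted p = 0.0041). For Oct4med against Oct4low the difference was 0.04 (95% interval -0.18 to 0.25, adjusted p = 0.814). DSP and TJP1, both with a CAGGTG match in the window shown above, were the only tested members that were higher in Oct4hi BCCs. JUP and MLPH, which carry a match too, were lower. Any part of the sequence in these changes was not tested.

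KRT7, a type II keratin of simple epithelia (chromosome 12), gave no call in any comparison. Its probe set 1558393_at read 6.13, 6.16, 6.39 and 6.11 in Oct4hi, 6.52 and 6.24 in Oct4med and 6.33, 6.12, 5.94 and 6.31 in Oct4low arrays, and the 3 subsets overlapped. The difference between Oct4hi and Oct4low was 0.02 (95% interval -0.21 to 0.25, limma adjusted p = 0.89). The probe set 214031_s_at, close to the array median, differed by 0.18 (95% interval -0.06 to 0.42, adjusted p = 0.223). A further one, 1558394_s_at, was below the filter, with means of 3.09 ± 0.18 in Oct4hi, 3.22 ± 0.06 in Oct4med and 3.33 ± 0.18 in Oct4low arrays (SD, n = 4, 2 and 4).

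GATA3, the luminal transcription factor (chromosome 10), was lower in Oct4hi BCCs and was the only tested member called between Oct4med and Oct4low BCCs. Probe set 209604_s_at read 6.83, 6.85, 6.71 and 7.08 in Oct4hi, 7.19 and 7.31 in Oct4med and 7.72, 7.67, 7.53 and 7.59 in Oct4low arrays. The 3 subsets did not overlap, and the Oct4med mean lay 49.5% of the way from the Oct4low to the Oct4hi mean. GATA3 was 1.69-fold lower in Oct4hi than in Oct4low BCCs (-0.76, SE 0.09, limma adjusted p = 7.26e-05), 1.30-fold lower in Oct4med than in Oct4low BCCs (-0.38, SE 0.11, adjusted p = 0.0284) and 1.30-fold lower in Oct4hi than in Oct4med BCCs (-0.38, SE 0.11, adjusted p = 0.0211).

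The steps at the Oct4med subset rested on few arrays. The call for GATA3 in Oct4med against Oct4low was lost without Oct4med replicate 1 (adjusted p = 0.176) or 2 (0.0549) and without Oct4low replicate 1 (0.0559) or 2 (0.064), and that for Oct4hi against Oct4med without Oct4med replicate 1 (0.067) or 2 (0.0982). The other GATA3 probe sets were below the filter. With no filter, 209602_s_at was lower in Oct4hi than in Oct4low arrays by 0.68 on the log2 scale (SE 0.12, adjusted p = 0.0013) and 209603_at by 0.30 (SE 0.09, adjusted p = 0.0274), and neither overlapped between these subsets. They parted at Oct4med: 209602_s_at averaged 4.29 ± 0.09 there, against 4.62 ± 0.19 in Oct4low arrays, and 209603_at averaged 5.08 ± 0.11, against 4.92 ± 0.10 in Oct4low arrays (SD, n = 2 and 4). With no filter, none of the 3 probe sets was called between Oct4med and Oct4low (adjusted p = 0.0552 for 209604_s_at, 0.186 for 209602_s_at and 0.399 for 209603_at).

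MLPH, which encodes melanophilin (chromosome 2), had the largest change of the 7 tested member probe sets. It read 8.47, 8.31, 8.34 and 8.37 in Oct4hi, 9.20 and 9.02 in Oct4med and 9.19, 9.21, 9.30 and 9.25 in Oct4low arrays. The Oct4hi arrays were lower than all others by at least 0.55 on the log2 scale, and the Oct4med and Oct4low arrays overlapped. MLPH was 1.82-fold lower in Oct4hi than in Oct4low BCCs (-0.87, SE 0.07, limma adjusted p = 4.92e-06) and 1.67-fold lower than in Oct4med BCCs (-0.74, SE 0.09, adjusted p = 0.000132). Oct4med differed from Oct4low by -0.13 (95% interval -0.32 to 0.06, adjusted p = 0.326).

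**Figure D2:**
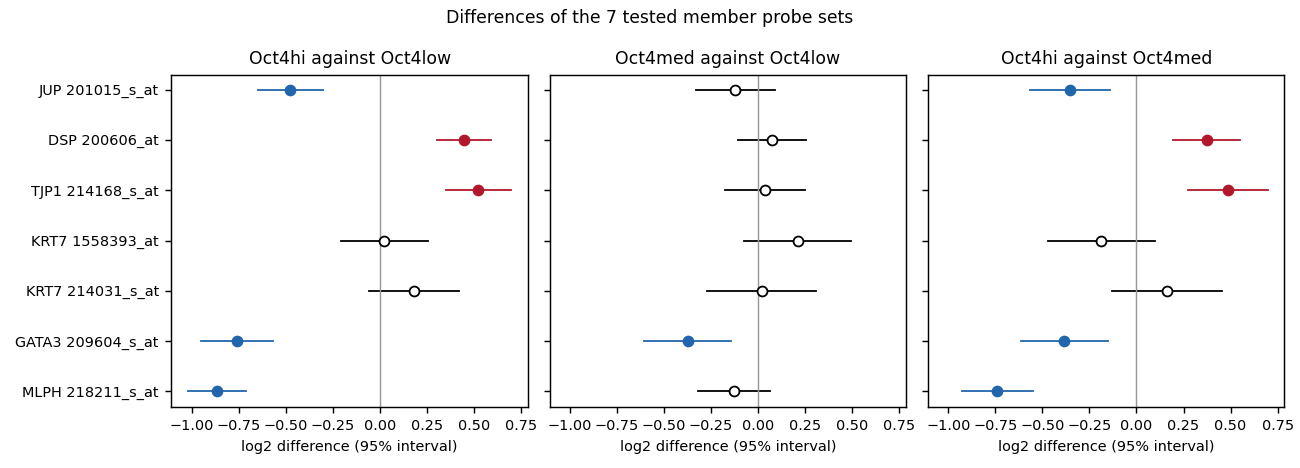
Log2 difference (x axis, points) with its 95% interval (lines) for the 7 tested member probe sets in the comparisons Oct4hi against Oct4low, Oct4med against Oct4low and Oct4hi against Oct4med, from left to right. Filled red points were called higher and filled blue points lower at an adjusted p under 0.05, and open points were not called. The points of 5 probe sets are filled in each comparison with Oct4hi and 1, GATA3, between Oct4med and Oct4low.

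The changes were set against those of all tested probe sets. These come from a deposit that the authors had already filtered for signal and for change, so the shares do not describe the whole array. The median size of a change between Oct4hi and Oct4low was 0.19 on the log2 scale, with a median signed change near 0. Only 208 of the 13872 tested probe sets (1.5%) had a larger change than MLPH, and 326 (2.35%) than GATA3. TJP1 was exceeded by 8.30% of them, JUP by 10.9% and DSP by 12.8%. Oct4hi and Oct4low did not overlap for any of the 5 called members, nor did they for 33.8% of all tested probe sets. Over the 12 member probe sets, tested or not, 8 did not overlap, beside 21.3% of all 25750 deposited probe sets.

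In the comparison of Oct4med with Oct4low, 1 of 7 member probe sets was lower and none was higher, beside 20.7% called overall (5.19% higher, 15.5% lower). Between Oct4hi and Oct4med 2 were higher and 3 lower, beside 26.8% overall (18.2% higher, 8.61% lower). The comparisons share arrays, so these counts are not independent of each other. The distance of Oct4med from Oct4low, as a share of the way to Oct4hi, was 7.17% for TJP1, 14.7% for MLPH, 16.5% for DSP and 25.6% for JUP. It was 49.5% for the tested GATA3 probe set, 209604_s_at. The GATA3 probe sets below the filter gave 49.0% (209602_s_at) and -51.9% (209603_at), the latter with Oct4med above Oct4low. These shares were not tested against each other.

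The other genes of each structure were read from lists written with earlier results of these data known, with the brightest tested probe set for each gene. Over all 7639 tested genes, 20.4% were higher and 14.8% lower in Oct4hi than in Oct4low BCCs, with a median change of 0.02, and for Oct4med against Oct4low these shares were 5.68% and 11.7%, with a median of 0.03. No list was tested as a set.

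Among 9 other adherens junction genes, 1 was higher and 1 lower in Oct4hi than in Oct4low BCCs, with a median change of 0.13. CTNNB1 (β-catenin, the close relative of JUP that also transmits Wnt signals) was lower, at 8.15 ± 0.21 in Oct4hi, 7.81 in Oct4med (mean, n = 2) and 8.76 in Oct4low arrays. Its difference was -0.61 for Oct4hi (SE 0.11, adjusted p = 0.00107) and -0.95 for Oct4med (SE 0.13, adjusted p = 0.000345), and Oct4hi against Oct4med did not pass (0.34, adjusted p = 0.072). A second CTNNB1 probe set was also called lower in Oct4hi but not in Oct4med BCCs. LIMA1, which ties the cadherin-catenin complex to actin, was higher in Oct4hi BCCs by 0.40 (SE 0.07, adjusted p = 0.00105) in 1 of 2 probe sets.

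The desmosome showed a mixture. Of 4 other desmosomal genes tested, PKP4, a plakophilin-related armadillo protein, was higher in Oct4hi than in Oct4low BCCs (0.61, SE 0.12, adjusted p = 0.00235), and DSC2, a desmosomal cadherin, was lower (-0.50, SE 0.11, adjusted p = 0.00405). With the members, 2 of 6 genes were higher and 2 lower. The cadherin DSC2 and its plaque partner JUP were thus lower, and DSP and PKP4 higher, in the same arrays. In Oct4med BCCs PKP4 and PERP, a desmosomal membrane protein, were higher than in Oct4low BCCs (0.51 and 0.32, adjusted p = 0.0291 and 0.0435), and the calls were lost without any 1 of 3 arrays for PKP4 (adjusted p up to 0.284) and of 6 arrays for PERP (up to 0.261), in both cases most without Oct4med replicate 2, where the differences were 0.23 for PKP4 and 0.20 for PERP.

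Of 17 other tight junction and polarity genes, 2 were higher and 2 lower, with a median of -0.07. PALS1, an adaptor of the Crumbs polarity complex, was higher in Oct4hi BCCs (9.46 ± 0.03, against 8.94 in Oct4low arrays; difference 0.52, SE 0.06, adjusted p = 8.96e-05). CGN, the cingulin that binds ZO-1, was higher by 0.54 (SE 0.08, adjusted p = 0.000481). PARD3, a scaffold of the PAR polarity complex, was lower in Oct4hi BCCs (-0.32, SE 0.07, adjusted p = 0.0041). TJP1 was thus higher together with PALS1 and CGN, while 13 of the 17 genes passed in neither direction.

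GJA3, a connexin, was higher in Oct4hi than in Oct4low BCCs (0.36, SE 0.09, adjusted p = 0.00754) and was the only one of 4 gap junction genes called in that comparison. Of the 7 keratin genes tested besides KRT7, none was called in either direction for Oct4hi or Oct4med against Oct4low BCCs. The medians were 0.00 for Oct4hi and 0.08 for Oct4med BCCs. Between Oct4hi and Oct4med, KRT10 was called higher in Oct4hi BCCs (0.33, SE 0.10, adjusted p = 0.0296). KRT10 and KRT80 were bright, at means of 10.14 and 8.84 in Oct4hi arrays. Others, such as KRT4 (4.93) and KRT5 (5.33), lay close to the array median there and have little signal to show a change. Against Oct4low, at an unadjusted p under 0.05, limma gave 0 of the 8 keratins including KRT7 for Oct4hi and 1 for Oct4med. The methods' t-test called 0 for both after adjustment. These 8 were out of 21 listed keratins, and the others were below the filter or not used here.

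**Figure D3:**
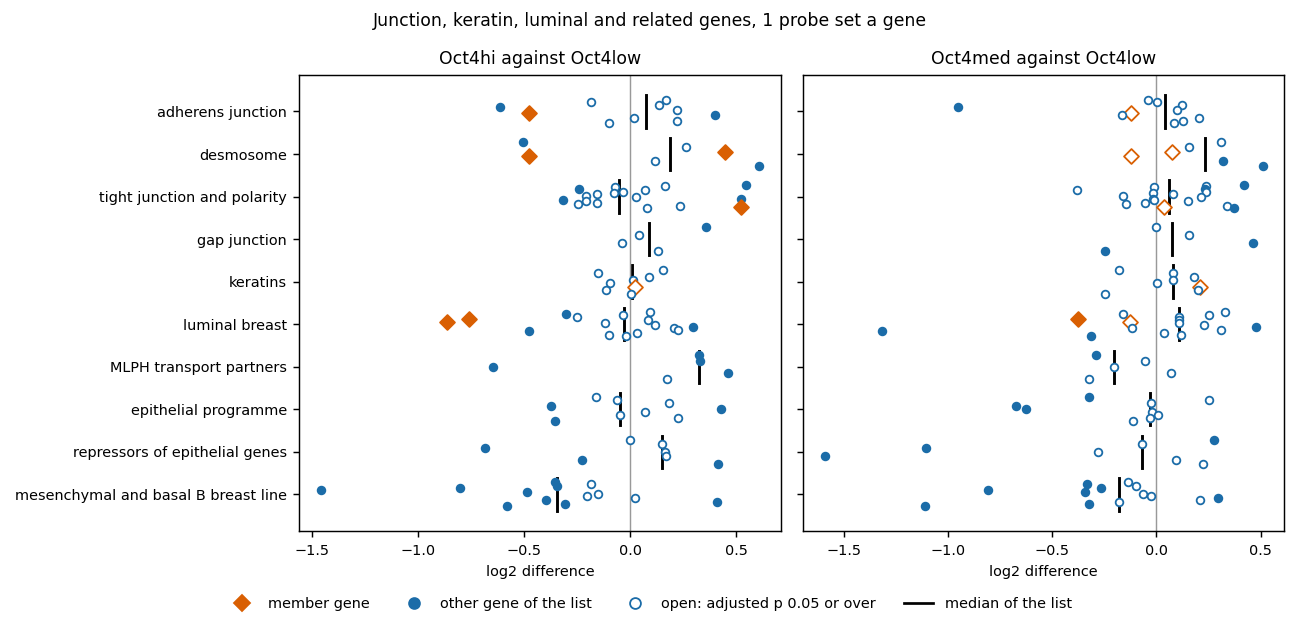
Log2 difference (x axis) of each tested gene of 10 gene lists (rows), for Oct4hi against Oct4low on the left and Oct4med against Oct4low on the right, with 1 probe set per gene. Orange diamonds are member genes, blue circles other genes of the list, filled symbols had an adjusted p under 0.05 and black lines are list medians. Symbols lie on both sides of 0 in the junction lists, none is filled among the keratins, and 8 of 13 mesenchymal genes are filled to the left of 0 in the left panel.

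Of 14 other luminal genes, 1 was higher and 2 lower in Oct4hi than in Oct4low BCCs, with a median change of 0.00, and the same counts were found for Oct4med against Oct4low, with a median of 0.11. TFF1, a secreted trefoil peptide that oestrogen induces, was lower by a difference of -0.48 in Oct4hi (SE 0.13, adjusted p = 0.0146) and -1.32 in Oct4med BCCs (SE 0.16, adjusted p = 0.00017). ELF3, an epithelial ETS factor, was lower in Oct4hi BCCs (-0.30, SE 0.08, adjusted p = 0.0113). SLC39A6, a zinc transporter that oestrogen also induces, was higher in Oct4hi BCCs by 0.29 (SE 0.10, adjusted p = 0.0351), a call that ended without any 1 of 6 arrays (adjusted p up to 0.108, without Oct4hi replicate 1). In Oct4med BCCs SLC39A6 was higher (0.48, SE 0.12, adjusted p = 0.016, 2 of 3 probe sets), a call lost without Oct4med replicate 2 (adjusted p = 0.121). XBP1, a secretory pathway factor named here after its values were seen, was lower in Oct4med BCCs (-0.31, SE 0.10, adjusted p = 0.042) in 1 of 2 probe sets.

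MLPH works as a bridge in vesicle transport. Of 5 other tested genes of this transport, which include its partners and other Rab27 effectors, 3 were higher in Oct4hi than in Oct4low BCCs and 1 was lower. RAB27A, the small GTPase that recruits it to vesicles, was higher in Oct4hi BCCs (10.46 ± 0.03, against 10.14 in Oct4low arrays; difference 0.33, SE 0.06, adjusted p = 0.00205). MYO5A, the myosin motor it binds, was higher by 0.33 (SE 0.07, adjusted p = 0.00468), each in 2 of 3 probe sets, and SYTL1, another Rab27 effector, by 0.46 (SE 0.08, adjusted p = 0.00089). RAB27B, the paralogue of RAB27A, was lower, as MLPH was (-0.65, SE 0.12, adjusted p = 0.00136). The remaining gene, SYTL2, was not called by its brightest probe set (0.17, adjusted p = 0.228), and its other probe set was higher.

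Regulators of epithelial identity were divided as well. Among 9 tested genes of the epithelial programme, KLF5 was higher in Oct4hi BCCs (0.43, SE 0.06, adjusted p = 0.000479), and KLF4 (-0.38, SE 0.06, adjusted p = 0.000985) and SPINT2, a serine protease inhibitor (-0.36, SE 0.06, adjusted p = 0.00116), were lower. KLF4 and KLF5 are Krüppel-like transcription factors of epithelia, and in Oct4med BCCs both were below Oct4low, by differences of -0.67 (adjusted p = 0.000113) and -0.63 (adjusted p = 0.000211, 1 of 2 probe sets for KLF5).

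Among 7 tested repressors of epithelial genes, 1 was higher and 2 lower in Oct4hi BCCs. Binding of these repressors to the windows shown above was not tested. SNAI2 (Slug), of the SNAI family, read 10.83 ± 0.04 in Oct4hi and 9.07 in Oct4med, against 10.66 in Oct4low arrays. It was lower in Oct4med BCCs by a difference of -1.59 (SE 0.08, adjusted p = 2.21e-07), whereas its difference of 0.17 in Oct4hi BCCs did not pass (adjusted p = 0.0711). ZEB1 was higher in Oct4hi BCCs by 0.41 (SE 0.13, adjusted p = 0.0272) in 1 of 3 probe sets, a call lost without Oct4low replicate 3 (adjusted p = 0.0794) and without Oct4hi replicate 1 (0.0807) or 4 (0.0609). HMGA2, a chromatin protein that promotes the mesenchymal state, was lower in Oct4hi (-0.68, SE 0.09, adjusted p = 0.000149) and in Oct4med BCCs (-1.11, SE 0.11, adjusted p = 3.34e-05), the second in 1 of 2 probe sets. TCF3 (E2A, which binds E-boxes) had a difference of -0.23 in Oct4hi BCCs (adjusted p = 0.0367) in 1 of 4 probe sets, lost without any 1 of 5 arrays (adjusted p up to 0.116, without Oct4hi replicate 1).

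The mesenchymal genes of the line were mostly lower in Oct4hi BCCs. There 8 of 13 were lower and 1 was higher than in Oct4low BCCs, with a median of -0.35, and in Oct4med BCCs 6 were lower and 1 higher. FN1 (fibronectin) was lower by a difference of -1.46 in Oct4hi (SE 0.06, adjusted p = 2.69e-08) and -0.81 in Oct4med BCCs (SE 0.08, adjusted p = 3.34e-05). CDH11, a mesenchymal cadherin, was lower in Oct4hi BCCs (-0.80, SE 0.06, adjusted p = 3.83e-06) and TNC, the matrix protein tenascin C, likewise (-0.58, SE 0.08, adjusted p = 0.000326). In the epithelial list, as set out above, 1 of 9 was higher and 2 lower.

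Finally, the genes whose profiles lay nearest to each called member were found over all 10 arrays, by the root mean square difference of log2 values centred on each probe set's mean. They were AMT (0.056) and MED28 (0.059) for JUP, ACAT2 (0.030) and MB21D2 (0.044) for DSP, KNL1 (0.075) and PALS1 (0.076) for TJP1, DUSP4 (0.085) and BDKRB2 (0.095) for GATA3, and FBXO32 (0.091) and TFPI (0.093) for MLPH. PALS1 was the only one of these 10 that was also on a junction list.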

How the data were processed

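The authors hybridized material from 100 ng of RNA of the sorted cells to each array. Per their methods, they took background-corrected intensities to the log2 scale in BRB-Array Tools and normalized them by RMA, and features near background or with little change were left out. The deposited values are therefore log2 intensities. Probe sets were named from the GEO annotation of the platform (18683 with 1 symbol, 799 with several, 6268 with none here). The 7 genes and all lists were chosen with earlier results of these data known.

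The 13872 probe sets at or above the array median in at least 2 arrays, controls left out, were fitted with limma 3.58.1 in R 4.3.3, with 1 mean per subset over all 10 arrays, and all p-values of differences are two-sided and Benjamini-Hochberg adjusted over them. The fit was tested on simulated data. Named besides the members were, per list, up to 3 called genes with the largest change for Oct4hi and up to 2 for Oct4med against Oct4low, the 2 nearest profiles to each called member, markers of the line and of other cell types, and genes the study names for the transition. Alternatives were filters, normalization, array weights, variance prior, the arrays fitted, a plain two-sample t-test on the same values (the methods' t-test, without their random variance model), the replicate number as a block, the probe sets kept and each array left out in turn. RNA came from separate experiments per the methods. The number of arrays limits the precision, most for the 2 Oct4med arrays. Array probe sets with the suffix _s_at or _x_at can match several transcripts.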

Additional observations from a re-analysis of the deposited data

Results flagged for a closer look

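In 24 pairs of a subset of 4 arrays and a member probe set, 1 array stood far from its group. For KRT7 probe set 1558393_at, Oct4hi replicate 3 read 6.39 and the other Oct4hi arrays 6.11 to 6.16, so that the gap to the nearest array was 0.843 of the whole range of the subset. Chance gives such a gap in about 1 of 20 groups. Without that array the difference between Oct4hi and Oct4low was not called either.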

How the results depend on the processing

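All 5 calls between Oct4hi and Oct4low held under every alternative in which the probe set was tested, with the highest adjusted p at 0.00355 for DSP, 0.00213 for GATA3, 0.00619 for JUP, 0.000152 for MLPH and 0.00495 for TJP1. The count of 5 became 8 with no filter and 1 without probe sets ending in _x_at or _s_at, since DSP and one of KRT7 then were the only tested members, and stayed at 5 without any 1 array. For Oct4med against Oct4low the count of 1 (GATA3) became 0 with no filter, with the values quantile normalized again, by the methods' t-test, with the replicate block and without _x_at and _s_at probe sets, and was 0 to 1 over the arrays left out. For Oct4hi against Oct4med the count of 5 became 3 by the methods' t-test, 3 with the replicate block and 1 without _x_at and _s_at probe sets, and was 2 to 5 over the arrays left out. Beyond the calls named in the report, JUP and GATA3 lost theirs in this comparison by the methods' t-test and the replicate block, DSP with quantile normalization and GATA3 when only those 2 subsets were fitted. The causes were not tested. Over all tested member differences and alternatives, 401 values kept their side of the threshold, 19 were no longer past it, and no called difference turned its sign. The sign turned in 6 values of KRT7 that were not called in any fit, 3 of 1558393_at for Oct4hi against Oct4low and 3 of 214031_s_at for Oct4med against Oct4low. Replicate numbers showed no clear pairing of the arrays: correlations of same-numbered deviations ran from -0.26 to 0.28, and 2 of 8 Oct4hi and Oct4low arrays correlated best with their own number. With so few arrays, these correlations cannot tell whether arrays of different subsets came from the same experiment.

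For the other named genes the same alternatives were added after seeing the data. The calls of ACTA2, SLC39A6, TCF3 and ZEB1 for Oct4hi against Oct4low were lost in at least 1 of them, as were those of CD14, CDH11, CGN, COL1A1, GJB2, MYO5A, PANX1, PERP, PKP4, SLC39A6 and TJP3 for Oct4med against Oct4low. With the probe set of largest spread for each gene, the Oct4hi counts became 0 higher adherens junction genes in place of 1, 4 lower tight junction genes in place of 2 and 1 lower repressor in place of 2. Over all probe sets, quantile normalization moved the split of higher against lower calls to 1385 and 1809 for Oct4med against Oct4low, in place of 720 and 2145, and to 1718 and 1620 for Oct4hi against Oct4med, in place of 2518 and 1195. A shift to a common median gave 2642 and 772 in the last comparison. Members close to the array median, such as 214031_s_at of KRT7, and those below it have the least signal to show a change.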

Other observations

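A few genes of other lists had values that the comparisons above did not use. GJB2, a connexin of epithelia, was higher in Oct4med than in Oct4low BCCs (0.46, SE 0.12, limma adjusted p = 0.0184), while its difference in Oct4hi BCCs was -0.04 (adjusted p = 0.789). PANX1, a channel protein related to connexins, was lower in Oct4med BCCs (-0.25, SE 0.08, adjusted p = 0.0413). TJP3, the tight junction scaffold ZO-3 and a relative of TJP1, was higher in Oct4med BCCs by 0.37 (SE 0.10, adjusted p = 0.0257) and differed by 0.08 in Oct4hi BCCs (adjusted p = 0.528), whereas TJP1 was called for Oct4hi and not for Oct4med. The 3 calls for Oct4med were lost under some alternatives.

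Markers of cells other than breast epithelium were read beside the members. HBE1, an embryonic globin, was higher in both Oct4hi (0.73, SE 0.08, adjusted p = 4.56e-05) and Oct4med BCCs (0.68, SE 0.10, adjusted p = 0.000489), and was the only 1 of 4 tested erythroid genes to be called. None of 4 leukocyte genes was called by limma for Oct4hi, and CD14 was lower for Oct4med (-0.50, adjusted p = 0.0339), a call lost without any 1 of 5 arrays and with a difference of -0.26 without Oct4med replicate 2 (adjusted p = 0.29). ACTA2, smooth muscle actin, was higher in Oct4hi BCCs (0.38, SE 0.10, adjusted p = 0.0143), 1 of 5 stromal genes, and COL1A1 was lower in Oct4med BCCs in 1 of 2 probe sets (-0.42, SE 0.11, adjusted p = 0.0231), while the other averaged 8.04 in Oct4med and 7.84 in Oct4low arrays. PTPRC, LYZ and COL1A2 were below the array median on all 10 arrays. By contrast, CD3D, GATA1 and the probe sets of COL1A1 were above it on all 10. The probe sets of DCN were divided, so these markers were not uniformly dim. Of a list of 12 genes that the study names around the epithelial-mesenchymal transition, 5 were tested, of which ZEB1 was higher in Oct4hi and SNAI2 lower in Oct4med BCCs. FN1, which the study also names for it, was not on that list and was lower in both subsets, as given above with the mesenchymal genes.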
